A study of Sus scrofa with 63 samples.

Results

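Gluconeogenesis was examined through 8 genes, G6PC, G6PC3, PCK1, PCK2, FBP1, FBP2, PC and SLC37A4, in the jejunum of pig fetuses. All probes that carry one of these names on the array, in any letter case, were taken, which gave 22 of 60305 probes and 8 of the 10921 array names that are pig gene symbols. The 63 fetuses came from Large White (LW) and Meishan (MS) sows inseminated with semen of both breeds, and a middle segment of jejunum was taken at day 90 or day 110 of gestation. LW and MS denote purebred fetuses, LWMS those of an LW sire and an MS sow, and MSLW those of an MS sire and an LW sow. At day 90 there were 9 LW, 6 MS, 9 LWMS and 8 MSLW fetuses, and at day 110 there were 9, 7, 9 and 6. No treatment is given in the labels. According to the study's methods they were males taken from shared litters, but the sow of each fetus was not given in the labels, so litter mates entered every test as independent. Each fetus was hybridised to one array in a single colour, and levels are log2 signals relative to the 75th percentile of the same array, so a value of 0 is the level at that percentile.

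Gluconeogenesis makes glucose from lactate, glycerol and amino acids. PC and the phosphoenolpyruvate carboxykinases PCK1 (cytosolic) and PCK2 (mitochondrial) bring carbon from pyruvate to phosphoenolpyruvate, the fructose-1,6-bisphosphatases FBP1 and FBP2 remove a phosphate further along, and glucose-6-phosphatase releases free glucose inside the endoplasmic reticulum. G6PC is its catalytic subunit in liver, kidney and intestine, G6PC3 is the widely expressed form, and SLC37A4 carries glucose 6-phosphate to the enzyme. The pathway is best known from liver and kidney, and the small intestine also holds its key enzymes. The comparisons below ask how these genes changed between day 90 and day 110 in each genotype, and how they differed between breeds and with the breed of the sow or sire.

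Of the 22 probes, 21 passed the filter for signal. The exception was the PC probe A_72_P479920, which was well above background on 7 arrays and was not tested. Each gene is described by its brightest tested probe, with the others as a check. The following 60-base probe sequences are shown because the results turn on these genes and the probes differ in what they can distinguish. Each reads through in at least 1 frame with no stop codon before its end. In G6PC probe O9881 the capitals mark the first ATG, and in PC probe A_72_P303224 they mark an in-frame stop codon at the end of the probe.
G6PC O9881: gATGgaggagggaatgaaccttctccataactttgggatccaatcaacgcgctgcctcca
G6PC A_72_P440076: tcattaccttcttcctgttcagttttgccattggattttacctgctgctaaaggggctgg
FBP2 O8848: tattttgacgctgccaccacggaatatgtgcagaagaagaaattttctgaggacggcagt
PC A_72_P303224: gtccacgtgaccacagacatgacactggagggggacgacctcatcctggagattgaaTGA
The paralogues PCK1 and PCK2 have a pair of probes that align without gaps. Capitals mark the bases that the probes share, 35 of 58 aligned positions or 60.3%.
PCK1 A_72_P441080: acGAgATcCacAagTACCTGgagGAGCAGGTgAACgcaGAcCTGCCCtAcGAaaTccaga
PCK2 A_72_P607328: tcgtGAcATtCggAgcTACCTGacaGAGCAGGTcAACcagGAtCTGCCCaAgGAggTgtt
The PCK1 probe followed the brightest PCK1 probe with a Pearson r of 0.98 over the 63 fetuses, and the PCK2 probe followed the brightest PCK2 probe with an r of 0.96. Probes of 1 gene also tracked each other for FBP1 (r from 0.94 to 0.97), G6PC (0.87 to 0.96) and PC (0.89). The SLC37A4 probes did not, with an r of 0.07, and the brighter of them, A_72_P432294, is described on the array as an uncharacterized protein. After removal of the group means, the r between G6PC probes was lower, from 0.47 to 0.76. The PCK2 probe A_72_P239137 followed the brightest PCK2 probe with an r of 0.72 over all fetuses. Among the 6 PCK1 probes, A_72_P098696 and A_72_P593929 overlap by 58 bases, so they are nearly the same sequence.

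Libraries differed in the share of probes well above background, from 51.2% to 87.6% with a median of 66.7%. The tissue label was checked against 13 enterocyte markers, all of which were detected. At day 110, MS fetus 632 stood apart. Its mean marker level was 1.48, against 4.48 to 5.87 in the other MS fetuses of that day, and its level was 0.20 for FABP2, 0.77 for APOA4 and -1.31 for LCT, while alkaline phosphatase (ALPI) was not well above background. Its levels of the general epithelial genes EPCAM (5.71) and KRT8 (7.70) were inside or at the top of the range of its group. LW fetus 575 had the next lowest mean marker level, 2.91, and these 2 fetuses were the only ones below every day 90 fetus, whose lowest value was 3.73. Results of the 8 genes that change without fetus 632 are given with both values, and a count of probes is also given without both fetuses. In these samples of whole tissue, fewer cells of a type and less RNA per cell cannot be told apart.

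Expression of the members rose with age or did not pass the test, and none fell by the thresholds used (limma, Benjamini-Hochberg adjusted p of at most 0.01 and a log2 change of at least 0.5). In LW fetuses 3 of 21 probes rose, where 2.23% of all 40515 tested probes did. In MS fetuses 4 rose, against 1.69% of all probes. In LWMS fetuses 10 rose, against 4.2%, and in MSLW fetuses 10 rose, against 2.47%. The 0 member probes that fell in limma stood against 2.54% of all probes in LW, 1.48% in MS, 5.68% in LWMS and 2.94% in MSLW, and 4, 2, 0 and 0 of the 21 probes had an unadjusted p under 0.05 in that direction. The risers belonged to 3 genes, G6PC and FBP2 in all 4 genotypes and PCK1 in the crossbred fetuses. The median log2 change over the 21 probes was 0.28 in LW, 0.36 in MS, 0.77 in LWMS and 0.82 in MSLW, whereas that of all tested probes lay between -0.04 and 0.00. PCK1 alone has 6 of the 21 probes, which weigh on these counts and medians. With 1 probe per gene the medians were 0.22, 0.35, 0.63 and 0.71 in the same order. The plot of age changes by gene shows that the spread between genes was wider than that between genotypes.

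**Figure D1:**
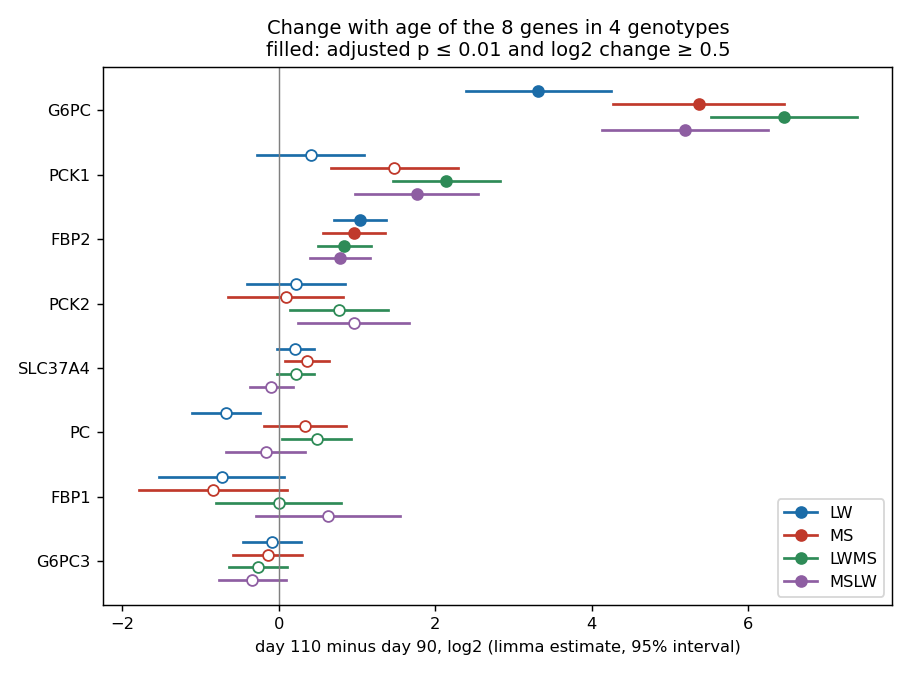
Change between day 90 and day 110 (x axis, log2) of the brightest tested probe of each of the 8 genes (y axis) in LW, MS, LWMS and MSLW fetuses; points are limma estimates, lines their 95% intervals, and filled points passed the test. G6PC lies furthest to the right, from 3.31 in LW to 6.45 in LWMS, FBP2 lies between 0.78 and 1.04, and G6PC3, FBP1, PC, PCK2 and SLC37A4 have no filled point.

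G6PC, which frees glucose from glucose 6-phosphate, went from near the detection limit at day 90 to clear signal at day 110. Its brightest probe, A_72_P714188, was well above background on 3 of 9 LW, 5 of 6 MS, 2 of 9 LWMS and 4 of 8 MSLW arrays at day 90. At day 110 it was so on 8 of 9, 7 of 7, 9 of 9 and 6 of 6.
In LW fetuses the log2 level at day 90 was lowest at -6.04, with a median of -5.70 and a highest value of -5.27, and at day 110 these values were -5.10, -1.90 and 0.28. In MS fetuses they were -5.84, -4.69 and -3.38 at day 90 and -1.83, 1.21 and 2.14 at day 110. In LWMS fetuses they were -6.53, -5.61 and -4.67, then 0.12, 1.0 and 1.82. In every one of these genotypes each fetus of day 110 lay above all fetuses of day 90. In MSLW fetuses, too, the ages did not overlap, with -6.59, -5.77 and -4.68 at day 90 and -1.57, -0.11 and 0.26 at day 110. Of the 21 member probes, 1 was separated by age in LW (1.23% of all tested probes), 6 in MS (2.19%), 10 in LWMS (3.04%) and 6 in MSLW (4.34%).

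The rise of G6PC was 3.31 ± 0.46 on the log2 scale in LW (estimate ± SE, limma adjusted p = 4.71e-07). It was 5.37 ± 0.55 in MS (adjusted p = 1.84e-10). It was 6.45 ± 0.46 in LWMS (adjusted p = 1.25e-15) and 5.19 ± 0.53 in MSLW (adjusted p = 3.33e-10). All 4 increases passed the test, and G6PC had the largest change of the 8 genes in each genotype. Their size differed between processing choices, and since many day 90 arrays were not well above background no fold is given. With the normexp background model the log2 increases were 1.77, 3.68, 4.10 and 2.98 in the same order, and with the authors' own log2 values they were 2.09, 4.23, 4.95 and 3.71, all past the threshold. Within each of the 8 slides the day 110 mean exceeded the day 90 mean, by 3.43 to 6.65.
The other G6PC probes rose in the same direction. They passed the filter for signal only through day 110 groups, so their rises, also those counted above, are not separate support. For A_72_P440076 the log2 changes were 2.44 in LW, 4.27 in MS and 5.81 in LWMS, all of which passed, although it was well above background at day 90 on only 1 of 9 LW, 3 of 6 MS and 1 of 9 LWMS arrays. For O9881 they were 3.69 in MS and 4.04 in LWMS, both of which passed, with 1 of 6 and 1 of 9 arrays well above background at day 90. In LW it was so on 0 of 9 arrays at day 90 and 2 of 9 at day 110, and the difference did not pass (adjusted p = 0.0231) and gave no bound above 1. For a probe undetected throughout a group, a lower bound on the fold was set from the dimmest detected probe of each array in that group. On that basis A_72_P440076 was at least 7.52-fold higher (limma adjusted p = 2.18e-06) and O9881 at least 2.49-fold higher (adjusted p = 0.000216) at day 110 in MSLW, where neither was detected on any of the 8 day 90 arrays.

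**Figure D2:**
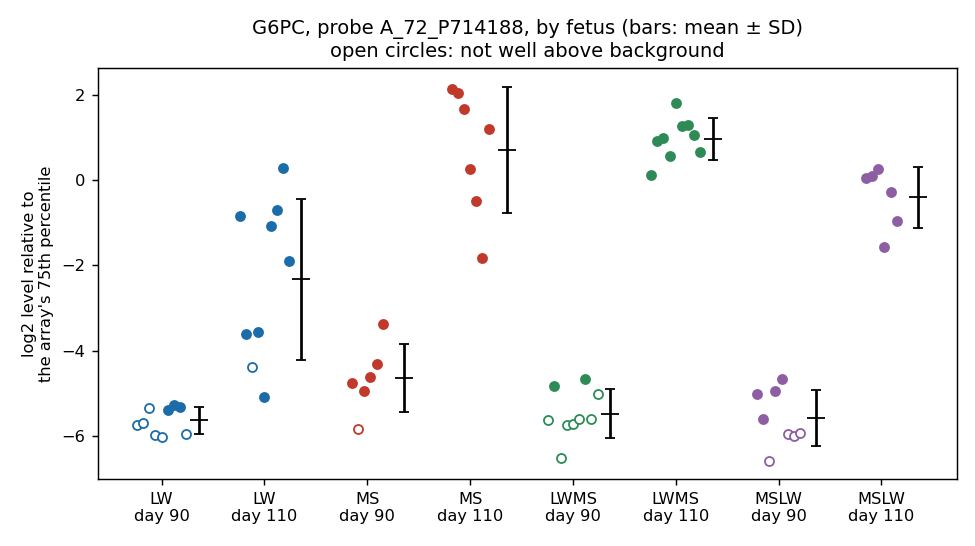
Level of G6PC probe A_72_P714188 (y axis, log2 relative to the array's 75th percentile) in each fetus of the 8 groups (x axis), with the mean and SD of each group beside it; open circles were not well above background. No day 110 fetus overlaps with day 90 in its own genotype, and LW fetuses at day 110 spread from -5.10 to 0.28.

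At day 110 the genotypes were ordered LWMS (0.97 ± 0.49, SD, n = 9), MS (0.72 ± 1.48, n = 7), MSLW (-0.40 ± 0.72, n = 6) and LW (-2.32 ± 1.89, n = 9) by mean G6PC level. Neighbours in this order overlapped in range, and so did MS and LW as a whole. The mean difference between the purebred fetuses was nevertheless larger than the SD of either group. G6PC was higher in MS than in LW by 3.04 ± 0.50 (95% interval 2.05 to 4.03, limma adjusted p = 9.88e-06), with 4 of 7 MS fetuses above all LW fetuses. The model used 1 spread per probe, shared by all 8 groups. The SDs of LW and MS at day 110 were larger than those of every other group. The SE, interval and p-value therefore leave out part of the spread of these fetuses. Within the 5 slides that held both breeds at day 110, the MS mean was higher in 5, by 0.37 to 6.42.
At day 90 the MS mean was -4.65 ± 0.80 (SD, n = 6) and the LW mean -5.64 ± 0.31 (n = 9), and the difference of 0.99 ± 0.52 did not pass (limma adjusted p = 0.311). The change of the breed difference with age, 2.05 ± 0.72, did not pass either (limma adjusted p = 0.439), so the rise with age was not shown to differ between the purebred genotypes.
The LW fetuses of day 110 differed widely among themselves. Fetuses 575, 559, 557 and 572 had G6PC levels of -5.10, -4.39, -3.62 and -3.57, and the other 5 ranged from -1.90 to 0.28.

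Over all 21 probes, 2 were higher in MS than in LW at day 110, both of G6PC, against 1.84% of all tested probes. In limma 0 were lower, with 1 at an unadjusted p under 0.05, against 3.17%. The ranges of MS and LW did not overlap for 0 probes at day 110 (1.65% of all probes) and for 1 at day 90 (2.32%). Without MS fetus 632, 7 probes passed the test as higher in MS at day 110, namely 2 of G6PC and 5 of PCK1, and without this fetus and LW fetus 575, 3 passed. At day 90, 0 of the 21 passed in limma, and 0 had an unadjusted p under 0.05, where 3.59% of all probes passed. For the change of the breed difference with age 0 of 21 passed in limma, with 8 at an unadjusted p under 0.05, and 0.0173% of all probes passed.

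PCK1, the cytosolic enzyme that commits carbon to the pathway, was detected on every array and rose with age in the crossbred fetuses. Its brightest probe, O10937, had in LWMS fetuses a lowest, median and highest level of 1.37, 1.66 and 2.01 at day 90 and of 2.96, 3.75 and 4.60 at day 110. The ages did not overlap in LWMS, and the change was 2.14 ± 0.34 (limma adjusted p = 4.00e-06, 4.41-fold). In MSLW fetuses the values were 0.73, 1.41 and 2.26 at day 90 and 2.26, 3.32 and 4.31 at day 110. There 5 of 6 fetuses of day 110 lay above all of day 90, and the change was 1.76 ± 0.39 (limma adjusted p = 0.00134, 3.39-fold).
All 6 PCK1 probes rose in both crosses, though A_72_P637186 also overlaps the pair of near-identical probes, by 19 and 21 bases. In MS fetuses the levels were 1.20, 2.06 and 2.40 at day 90 and 2.45, 3.34 and 4.27 at day 110, with no overlap. The MS change of 1.48 ± 0.40 missed the threshold (limma adjusted p = 0.0147) and passed without fetus 632, at 1.64 (adjusted p = 0.00682). In LW fetuses the levels were 1.38, 1.60 and 2.43 at day 90 and 0.30, 2.83 and 3.88 at day 110.
The LW change of 0.41 ± 0.34 did not pass (limma adjusted p = 0.527). Its 95% interval ran from -0.28 to 1.09. LW fetuses 559, 557, 572 and 575 lay below every other LW fetus of either age, at 0.30, 0.52, 0.60 and 1.06, and the other 5 of day 110 lay above every LW fetus of day 90, from 2.83 to 3.88. At day 110 PCK1 was higher in MS than in LW by 1.32 ± 0.37, which missed the threshold (limma adjusted p = 0.0119) and passed without fetus 632, at 1.48 (adjusted p = 0.00547). Fewer member probes passed when LW fetus 575 was left out as well, as given above, and the PCK1 estimate of that setting is not given. Over 14 alternative settings this PCK1 difference ran from 1.23 to 1.97, with limma adjusted p from 3.97e-05 to 0.0611. It passed in 4 of them, so the call depended on the setting and on the fetus left out.

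FBP2, the muscle form of fructose-1,6-bisphosphatase, showed the most even rise. In LW fetuses its lowest, median and highest levels were -2.54, -1.88 and -1.11 at day 90 and -1.33, -0.84 and -0.15 at day 110. In MS fetuses they were -2.35, -2.19 and -1.99, then -1.79, -1.22 and -0.79. In LWMS fetuses they were -2.04, -1.81 and -1.68, then -1.62, -0.91 and -0.62. The ages were apart in MS and LWMS and overlapped in LW. In MSLW fetuses they overlapped as well, with -3.07, -2.24 and -1.90 at day 90 and -1.98, -1.62 and -0.74 at day 110.
The change was 1.04 ± 0.17 in LW (limma adjusted p = 9.50e-06, 2.05-fold) and 0.96 ± 0.20 in MS (adjusted p = 0.000731). It was 0.84 ± 0.17 in LWMS (adjusted p = 0.000160) and 0.78 ± 0.19 in MSLW (adjusted p = 0.00376). The call in MSLW was lost under normexp correction, quantile normalization and median centring, with adjusted p between 0.0102 and 0.0439, and without fetus 688, at 0.71 (adjusted p = 0.0163). FBP2 has a single probe on the array, and the log2 increase was positive within all 8 slides, from 0.62 to 1.47.

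**Figure D3:**
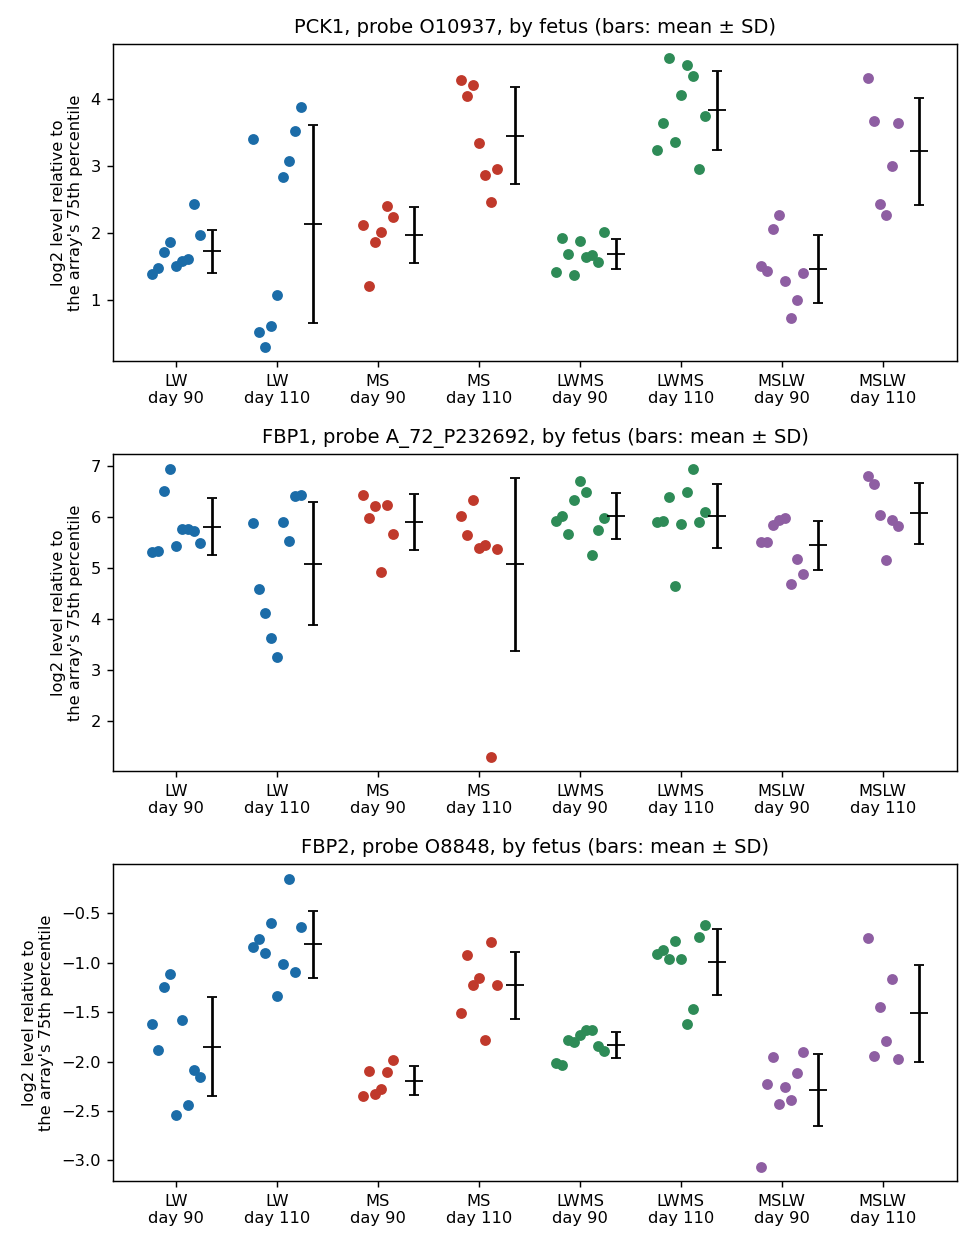
Levels of PCK1, FBP1 and FBP2 (y axes, log2 relative to the array's 75th percentile) in each fetus of the 8 groups (x axes), with the mean and SD of each group beside it. LW fetuses at day 110 form a low and a high set for PCK1 and FBP1 but not for FBP2, and MS fetus 632 lies at 1.30 for FBP1.

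FBP1, the form of liver, kidney and intestine, was detected on every array and did not change with age by the test. Its brightest probe, A_72_P232692, had group means from 5.45 to 6.02 at day 90 and from 5.08 to 6.08 at day 110. The changes were -0.73 ± 0.40 in LW (limma adjusted p = 0.268), -0.84 ± 0.47 in MS (0.315), 0.00 ± 0.40 in LWMS (0.999) and 0.63 ± 0.46 in MSLW (0.416). Without fetus 632 the MS change was -0.21 ± 0.38 (adjusted p = 0.822). The 95% intervals over all fetuses reached from -1.53 to 0.07 in LW and from -1.78 to 0.11 in MS. The spread at day 110 was wide in the purebred fetuses, with an SD of 1.21 in LW and of 1.70 in MS. MS fetus 632 was at 1.30 and the other 6 MS fetuses from 5.38 to 6.33. In LW, fetuses 575, 572, 559 and 557 were at 3.26, 3.64, 4.12 and 4.60, below all other LW fetuses of either age.

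PCK2, the mitochondrial carboxykinase, differed among the 8 groups (limma F test, adjusted p = 0.00684), but none of its pairwise changes passed. Its level in MSLW was 3.54, 3.81 and 3.96 (lowest, median, highest) at day 90 and 4.21, 4.81 and 5.07 at day 110, without overlap. The change there was 0.96 ± 0.36 (limma adjusted p = 0.0670), and it was 0.77 ± 0.31 in LWMS (0.0713), 0.22 ± 0.31 in LW (0.743) and 0.09 ± 0.37 in MS (0.927). Without fetus 632 the MS change was 0.51 ± 0.32 (adjusted p = 0.388). The PCK2 probe A_72_P239137 went in the opposite direction in MS, at -0.98, and in LWMS, at -0.27, neither past the threshold. Its MS value was -0.37 without fetus 632, the only MS array of day 110 on which it was not well above background. Over the 21 probes, 11 passed the F test at an adjusted p below 0.01, against 28.8% of all tested probes, and these stood for G6PC, PCK1, FBP2 and PCK2.

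PC, the mitochondrial enzyme that makes oxaloacetate from pyruvate, did not pass in any comparison. Its level in LW was 0.04, 0.67 and 0.98 (lowest, median, highest) at day 90 and -1.01, -0.13 and 1.03 at day 110, a difference of -0.67 ± 0.22 (limma adjusted p = 0.0360, above the threshold of 0.01). The second tested PC probe, whose sequence ends in the stop codon, gave -0.76 in LW (adjusted p = 0.0202). At day 110 PC was higher in MS than in LW by 0.73 ± 0.23 (limma adjusted p = 0.0341), and by 0.45 without MS fetus 632 (adjusted p = 0.162), whose PC level of 2.40 was the highest of its group.
SLC37A4, the glucose 6-phosphate carrier, varied little. Its group means ran from 7.38 to 7.74, and the age changes ran from -0.10 in MSLW to 0.36 in MS, with limma adjusted p from 0.108 to 0.719. Its other probe, O9112, changed by 0.02 in LW, 0.06 in MS, 0.46 in LWMS and 0.63 in MSLW, none past the threshold. G6PC3 did not pass either, with age changes from -0.34 in MSLW to -0.09 in LW and limma adjusted p from 0.336 to 0.844. The MSLW value turned to 0.05 without fetus 688, whose level was -4.66. With all fetuses its 95% intervals lay between -0.76 and 0.30 over the 4 genotypes, below the interval of G6PC in each.

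The reciprocal crosses allowed the breed of the sow to be set apart from that of the sire. Fetuses of MS sows (MS and LWMS) had higher levels than those of LW sows (LW and MSLW) for 9 of 21 probes at a limma adjusted p below 0.05, namely all 3 of G6PC and all 6 of PCK1. These probes stand for only 2 genes. G6PC probes A_72_P440076 and O9881 passed the filter for signal only through day 110 groups, so they are not separate support. The G6PC averages over ages also include day 90 values near the detection limit. Over all tested probes 7.07% were higher and 8.84% lower, and 0 of the 21 were lower in limma, with 0 at an unadjusted p under 0.05. For G6PC the sow difference, averaged over ages, was 1.38 ± 0.25 (limma adjusted p = 5.14e-05), and for PCK1 it was 0.60 ± 0.19 (adjusted p = 0.0198). The sire difference in the same genes was 0.64 ± 0.25 for G6PC (adjusted p = 0.124) and 0.18 ± 0.19 for PCK1 (adjusted p = 0.664), and the sow and sire differences were not tested against each other. As litter mates share a sow, the p-values of the sow comparison leave out the spread between litters.
For the sire, 1 of 21 probes was lower with MS sires, close to the 3.87% of all probes. In limma 0 were higher, with 2 at an unadjusted p under 0.05, against 3.1%. That probe was FBP2, with a difference of -0.43 ± 0.09 (95% interval -0.62 to -0.25, limma adjusted p = 0.000711). Its means with MS sires were -2.19 in MS and -2.29 in MSLW at day 90 and -1.23 and -1.51 at day 110. With LW sires they were -1.85 in LW and -1.83 in LWMS at day 90 and -0.81 and -0.99 at day 110. Both MS-sired groups were thus below both LW-sired groups at each age, although single fetuses overlapped. The FBP2 difference with the breed of the sow was 0.06 ± 0.09 (limma adjusted p = 0.710). For the change of the sow difference with age, 0 of 21 probes passed in limma, with 6 at an unadjusted p under 0.05, and 0.388% of all probes passed.

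The enterocyte markers moved with several of these results. Their median summed log2 level rose from 9.01 at day 90 to 9.77 at day 110 in LW, from 9.29 to 9.99 in MS, from 9.24 to 10.4 in LWMS and from 9.12 to 10.09 in MSLW. The range at day 110 was 8.15 to 10.5 in LW, 8.24 to 10.5 in MS, 9.21 to 10.6 in LWMS and 9.31 to 10.7 in MSLW. Of the 13 markers, 3 rose with age in LW, 3 in MS, 5 in LWMS and 4 in MSLW, among them the fatty acid binding protein FABP1 and the protease DPP4 in all 4. Between MS and LW at day 110, 0 of the 13 passed in limma, with 3 at an unadjusted p under 0.05, and their median difference was -0.01. These values include MS fetus 632, whose mean marker level was 1.48, and are not given without it. The group median of the mean marker level at day 110 was 5.54 in MS and 5.40 in LW, with ranges of 1.48 to 5.87 and 2.91 to 5.84. These values do not show that the breeds had equal marker levels. Of the other marker lists, only the leukocyte gene CD163 passed in that comparison, higher in MS, and the median differences were 0.66 for liver, 0.60 for pancreas, 0.42 for leukocytes, -0.01 for smooth muscle and -0.23 for erythroid cells.
After removal of the group means, the level of each of the 8 genes was compared with the mean level of the 13 markers over the 63 fetuses, making 8 relations. PCK2 followed the markers most closely (Pearson r = 0.94, Spearman rho = 0.84), then FBP1 (0.87 and 0.74), G6PC (0.83 and 0.83) and PCK1 (0.68 and 0.68). In each of these 4 the permutation p, shuffled within groups, was 1e-05 for both measures, the smallest that 100000 permutations can give, with an adjusted p of 2e-05. Without fetuses 632 and 575, the farthest from the median of the markers, r was 0.90 for PCK2, 0.76 for FBP1, 0.80 for G6PC and 0.74 for PCK1. With slide means removed as well, over all fetuses, r was 0.94, 0.87, 0.85 and 0.71. These pooled values did not hold in every group. Taken group by group, the FBP1 r at day 90 was -0.06 in LW, 0.59 in MS, 0.18 in LWMS and 0.88 in MSLW. At day 110 it was 0.81 to 0.97. For PCK1 the group values ran from 0.06 in LW at day 90 to 0.90 in LW at day 110. They ran from 0.43 to 0.95 for G6PC and from 0.66 to 0.98 for PCK2.
Within groups FBP2 did not follow the markers (r = -0.05, rho = -0.05, permutation p = 0.692 and 0.727), nor did G6PC3 (r = 0.10, rho = 0.11) or SLC37A4 (r = -0.22, rho = -0.14), each with an adjusted permutation p of at least 0.183. For PC, r was 0.07 (adjusted permutation p = 0.731) and rho 0.39 (adjusted permutation p = 0.00952), and r was 0.50 without fetuses 632 and 575. LW fetuses 575, 559, 572 and 557, which were low for G6PC, PCK1 and FBP1, also had the lowest mean marker levels of their group, 2.91, 3.79, 3.95 and 4.08, against 5.40 to 5.84 in the other 5. The part of these markers in the age and breed differences was not tested.

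**Figure D4:**
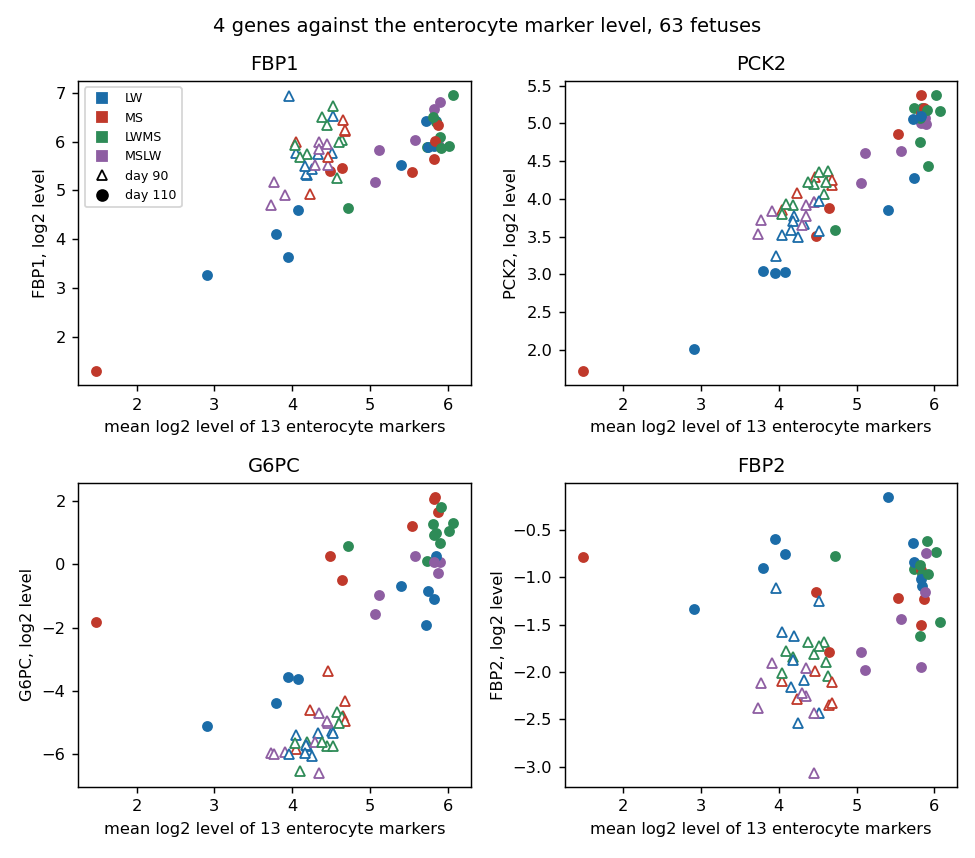
Levels of FBP1, PCK2, G6PC and FBP2 (y axes, log2) against the mean log2 level of 13 enterocyte markers (x axes) in 63 fetuses, coloured by genotype, with open triangles for day 90 and filled circles for day 110. FBP1 and PCK2 climb along the marker level, G6PC runs from -5.10 to 2.14 at day 110 along the same axis, and FBP2 has an r of 0.35 over all fetuses and of -0.05 within groups.

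Of 8 tested liver markers, 4 fell with age in LW, 2 in MS, 3 in LWMS and 1 in MSLW. HPX alone rose by the test, by 3.81 in LWMS and 3.19 in MSLW on the log2 scale. AFP, counted here as a liver marker, fell in all 4 genotypes, by 2.62 in LW, by 4.06 in MS, by 3.52 in LWMS and by 2.70 in MSLW on the log2 scale. The median summed level of the liver markers went from 2.94 to 1.52 in LW, from 2.95 to 2.49 in MS, from 3.50 to 2.33 in LWMS and from 2.78 to 2.08 in MSLW. Of 8 leukocyte markers, 1 rose in LW, 2 in MS, 3 in LWMS and 0 in MSLW in limma, with 2 at an unadjusted p under 0.05 in MSLW, and lysozyme (LYZ) was the riser in LW. Of 6 pancreas markers INS alone passed, rising in LW, LWMS and MSLW. The smooth muscle gene ACTA2 fell in LWMS and MSLW, and among erythroid genes HBB fell in MS and LWMS and HBE1 in LWMS. The part of these markers in the members' differences was not tested.

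Among the genes whose profile over the 63 fetuses was most like that of G6PC, of 8843 named genes, were GAL3ST1 (Pearson r = 0.95), FKBP5 (0.94), AHCYL2 (0.93) and SMPDL3B (0.93). Within groups the same r values were 0.74, 0.64, 0.61 and 0.68, lower than over all fetuses in each case. For PCK1 they were SLC5A6 (0.88), APOC3 (0.87), GAL3ST1 (0.87), G6PC (0.86) and TMEM120A (0.86). G6PC was thus among the closest to PCK1. For FBP1 they were PDZK1IP1 (0.89), AKR7A2 (0.89), SLC7A7 (0.88), SLC39A5 (0.88) and PLA2G12B (0.88), with within-group r from 0.88 to 0.90. These values describe likeness only, since all the points share tissue make-up and array scaling.

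Other genes of the pathway were counted by list. Of the regulators of gluconeogenic genes, 20 were tested, and 2 rose in LW, 1 in MS, 2 in LWMS and 2 in MSLW, while 0, 0, 1 and 2 fell. PPARGC1A, the coactivator that induces PCK1 and G6PC in liver, rose in all 4 genotypes, by 0.77 in LW, 1.27 in MS, 1.09 in LWMS and 1.08 in MSLW on the log2 scale (limma adjusted p from 6.21e-07 to 0.000470). KLF15, a transcription factor of fasting metabolism, rose by 1.14 in LWMS and 1.40 in MSLW, and IRS1, an adaptor of the insulin receptor, fell by 1.09 in LWMS and by 0.98 in MSLW. The deacetylase SIRT1 fell by 0.55 in MSLW. STAT3 rose in LW alone by the test (1.03), and the difference between genotypes was not tested. The list's median change lay between -0.10 and 0.17.
Of 18 tested genes that supply carbon, 1 rose in LW, 1 in MS, 6 in LWMS and 4 in MSLW. PDK4, the kinase that shuts pyruvate dehydrogenase and so spares pyruvate, rose by 1.68 in LW, 2.47 in MS, 2.22 in LWMS and 1.94 in MSLW. GPT, an alanine aminotransferase, rose by 3.29 in LWMS, and glycerol kinase (GK) by 2.01 in LWMS and 2.60 in MSLW.
Of 9 tested enzymes of glycolysis that oppose the pathway, PFKFB3, which makes the activator of phosphofructokinase, rose in all 4 genotypes by 1.01 to 1.39, and HK2, a hexokinase, rose by 0.88 in MS and 0.72 in LWMS. PFKFB1, the liver and muscle form, fell by 1.53 in LW and by 2.23 in MS, and it fell in LWMS as well. The 10 tested enzymes of the reversible steps shared with glycolysis showed 0 changes in LW, MS and LWMS in limma, with 2, 1 and 1 at an unadjusted p under 0.05, and ALDOC fell by 0.72 in MSLW. Of 5 genes of glucose movement, SLC5A1, the apical sodium-glucose carrier, rose by 1.79 in LWMS and 2.02 in MSLW, and SLC2A1 by 1.15 in MS and 1.11 in LWMS.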

How the data were processed

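RNA of 63 fetal jejunum samples was hybridised to 1-colour Agilent 60K porcine arrays on 8 slides of 7 or 8 arrays, each slide holding several groups. The authors deposited scanner intensity values from Agilent Feature Extraction 10.10.1.1, background-subtracted and not normalized between arrays. They also deposited a matrix of normalized log2 values for 39446 probes, whose columns each correlated best with the array of the same fetus (Spearman rho from 0.994 to 0.999) and whose choice of probes is not given in the sources used here. After removal of control spots and outlier flags, log2 processed signals were scaled by subtracting each array's 75th percentile. A probe was tested if at least 75% of the arrays in any group had it well above background, which held for 40515. R 4.3.3 and limma 3.58.1 fitted 1 mean for each of the 8 groups and 1 spread per probe shared by all groups, with Benjamini-Hochberg adjustment over all tested probes. Thresholds followed the study's methods, namely an adjusted p up to 0.01 together with a log2 difference from 0.5 for age and breed, 0.01 for the F test and the change of the breed difference with age, and 0.05 for sow and sire. The study's random effect of the sow could not be fitted, so p-values leave out the spread between litters. The number of arrays limits the precision.

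The members, lists and tests were chosen with earlier results of these data known, and the study itself singled out some of these genes on the same samples. Each gene is represented by its tested probe with the highest mean level. Of each pathway list up to 3 genes per direction were named, by the largest mean age change among those called in at least 1 genotype. Marker genes were named after their values were seen. For simulated log2 changes of 2 in 200 of 37740 probes, the test of age in LW recovered 93.5%. The simulated noise was independent and normal with 1 SD per probe in all groups, so it held no litters and no unequal group spread. Smaller changes with age were not simulated. Alternatives were the authors' log2 values, normexp background correction (offset 50), quantile normalization, median centring, other filters, slide as a block, array weights, purebred fetuses alone, the mean of a gene's probes, and omission of fetuses 484 and 469, which the study left out of its fold changes. Leaving out fetuses 632, 575 and 688 was chosen after seeing the data. Some results that these rules would name are not reported here.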

Additional observations from a re-analysis of the deposited data

Results flagged for a closer look

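Over the 64 combinations of gene and group, 8 held a fetus whose gap to its nearest neighbour was large for the range of the group (Dixon's 95% criterion), where chance marks about 1 in 20. MS fetus 632 at day 110 accounted for a pair of them, with FBP1 lowest at 1.30 (nearest 5.38) and PC highest at 2.40 (nearest 0.78). G6PC3 was lowest at -4.66 in MSLW fetus 688 (nearest -2.67) and at -3.47 in LWMS fetus 405 (nearest -2.69), both at day 110. FBP1 was lowest at 4.65 in LWMS fetus 609 at day 110. FBP2 was lowest at -3.07 in MSLW fetus 450 at day 90. PC was lowest at -0.046 in MSLW fetus 481 at day 110. SLC37A4 was lowest at 7.11 in LW fetus 850 at day 110.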

How the results depend on the processing

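For the 18 single-gene differences with an adjusted p of at most 0.05, 243 values under alternatives gave 230 on the same side of the threshold, 4 that no longer passed (FBP2 with age in MSLW, under normexp correction, quantile normalization and median centring and without fetus 688), 9 that newly passed and 0 of opposite sign. Counts of member probes called moved by more than 1.5 times as follows. With the authors' values, MS against LW at day 110 gave 5 (2 as reported) and the change of the sow difference with age 2 (0 as reported), which was 1 with normexp correction. Over all probes, MS against LW at day 110 gave 4.89% with the authors' values against 5.01%. The change of the sow difference gave 0.712% with the authors' values and 0.898% with normexp correction, against 0.388%. Median centring gave 6 for age in MSLW (10 as reported), where 2.7% of all probes passed against 5.41%. It moved the median of all tested probes to 0.11 for age in MS, 0.15 for MS against LW at day 110 and 0.13 for the sow, and raised the share of higher calls to 70.1% from 53.3%, 51.5% from 36.8% and 74.3% from 44.4%, and for age in LWMS to 66.1% from 42.5%; for the sire it was 27.5% against 44.5%. For the change of the sow difference with age this share was 80.7% with median centring, 71.1% with quantile normalization and 25.8% with normexp correction, against 49.0%. Array weights gave 8 for age in LW (3), 10 for age in MS (4), 2 for MS against LW at day 90 (0) and 12 at day 110. They gave 2 for the change of the breed difference with age (0), 16 for the sow (9) and 3 for the sire (1). For the change of the sow difference they gave 4 (0), and for the F test 19 (11). They also raised the share of all probes called. It became 8.13% from 4.77% for age in LW and 11.6% from 3.17% for age in MS. For MS against LW it became 7.22% from 3.59% at day 90 and 15.7% from 5.01% at day 110. For the change of the breed difference it became 0.143% from 0.0173%, and for that of the sow difference 1.87% from 0.388%. For the sow it became 32.7% from 15.9%, for the sire 15.6% from 6.97% and for the F test 55.6% from 28.8%. Fetus 632 had the lowest array weight, 0.14. MS against LW at day 110 gave 8 without fetuses 484 and 469, 1 with purebred fetuses alone and 7 without fetus 632, and the sire gave 2 without fetus 632. The shares of all probes in these 4 settings were 5.44%, 3.53%, 5.43% and 7.47% in the same order. The causes were not tested. No paired analysis was possible because each fetus carries its own number and the groups share none. Signal near background limits the precision of every G6PC change from day 90.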
